A study of Mus musculus with 4 samples.

Results

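The genes described here are 8 matrix metalloproteinases (MMPs) and 2 tissue inhibitors of metalloproteinases (TIMPs), taken by gene symbol (Mmp2, Mmp3, Mmp8, Mmp9, Mmp12, Mmp13, Mmp14, Mmp19, Timp1 and Timp2), and all 10 were found among the 35869 genes listed in each sample. Their transcripts were measured by RNA-seq in CD45+ cells, which were taken with CD45 microbeads from the collagenase-digested stromal vascular fraction of the epididymal white adipose tissue (eWAT) of male WT C57BL/6 mice. From 8 weeks of age the mice were fed for 12 weeks either a normal diet (ND, 10% of calories from fat) or a high-fat diet (HFD, 60% of calories from fat), and 2 samples were sequenced per diet. The number of mice behind each sample is not given in the sources used here, so the p-values measure only the spread between these samples. The values are TPM, the reads of a gene divided by its length and scaled to the same total in every sample, so that they give a share of the RNA of the sample. From the values of short microRNA genes, the samples held approximately 37600000 and 44500000 counted reads for ND and 46900000 and 41100000 for HFD. HFD replicate 1 stood apart in spermatid genes, of which 5 summed to 6460 TPM there, against 1995 TPM for HFD replicate 2 and 1734 and 1748 TPM under ND. HFD replicate 2 stood apart in fibroblast genes, of which 10 summed to 6360 TPM, against 3186 TPM for HFD replicate 1.

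MMPs are zinc-dependent endopeptidases that cut collagens, elastin, proteoglycans and many cell surface and soluble proteins. Most are secreted as inactive proenzymes that are opened by plasmin, by furin-like proteases or by other MMPs, and TIMPs block the active site of the opened enzyme. In the growing fat pad the matrix around the adipocytes has to be remodeled, and both fibroblasts and macrophages of the tissue are known sources of these enzymes.

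Most of these genes were called different between the HFD and ND samples, and not all in one direction. In the CD45+ cells from HFD-fed mice, the transcripts of Mmp2, Mmp3, Mmp12, Mmp14, Mmp19 and Timp1 were higher and those of Mmp9 were lower as compared to ND, while Mmp8, Mmp13 and Timp2 did not reach the thresholds. Differentially expressed genes (DEGs) were those with a limma adjusted p-value under 0.05, Benjamini-Hochberg adjusted over all 16849 genes tested, and a change of at least 1.5-fold on the log2(TPM + 1) scale. All 10 genes passed the filter on low values (a TPM of 1 or more in 2 or more samples), Mmp3 only through its HFD samples, and 7 of them were DEGs, where 18.4% of all genes tested were DEGs. Of the 7, 6 were higher in HFD and 1 was lower, against 8.08% and 10.3% of all genes tested. For 9 of the 10 genes, both HFD values lay on one side of both ND values, which was also the case for 66.9% of all genes tested. The median log2 fold change was 2.40 over the 10 genes and 0.06 over all genes tested. An exact two-sided permutation test of a single gene cannot give a p under 0.333 with 2 samples against 2. In RNA from a mixed cell fraction, fewer cells of a type and less RNA per cell cannot be told apart.

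**Figure D1:**
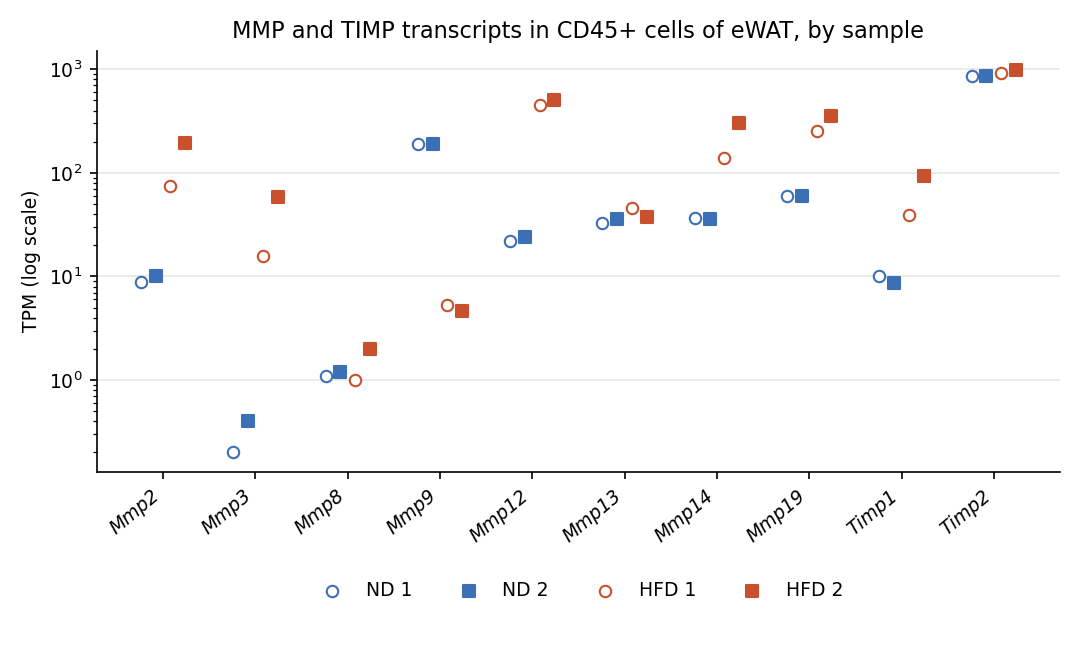
TPM of the 10 genes on a log axis, with 1 point for each of the 2 ND samples (blue) and the 2 HFD samples (red), open circles for replicate 1 and filled squares for replicate 2. Mmp9 is the gene that lies lower in HFD, Mmp12 and Mmp19 lie higher with close HFD samples, and Mmp2, Mmp3, Mmp14 and Timp1 lie higher with HFD samples that are more than 2-fold apart.

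The gelatinases, Mmp9 and Mmp2, cut denatured collagen and the type IV collagen of basement membranes, and they moved in opposite directions. Mmp9, gelatinase B (chr2:164940326-164955850 in RefSeq for GRCm38.p6, the assembly called mm10), had 191.2 and 190.6 TPM under ND and 5.3 and 4.6 TPM under HFD. The replicates of each diet were close and the diets lay far apart. Its mean was 38.6 times as high in ND as in HFD, with a log2 fold change of -5.01 (standard error, SE, 0.08, limma adjusted p = 0.00378). Mmp2, gelatinase A (chr8:92827290-92853421), had 8.9 and 10 TPM under ND and 75.5 and 192.9 TPM under HFD. The HFD samples were thus far above both ND samples and also 2.55-fold apart from each other. The log2 fold change of Mmp2 was 3.54 (SE 0.52, limma adjusted p = 0.0258), and it was 4.22 with HFD replicate 1 left out and 2.87 with HFD replicate 2 left out.

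Mmp12, the macrophage metalloelastase (chr9:7344397-7360461), rose with little spread. It had 22.1 and 24 TPM under ND and 447.8 and 504.0 TPM under HFD, so that its mean was 20.6-fold higher in HFD. The log2 fold change was 4.31 (SE 0.09, limma adjusted p = 0.00378), far larger than the SD of 0.10 within a diet. Mmp19 (chr10:128790910-128800827), an MMP with several basement membrane proteins among its substrates, had 59.3 and 60.1 TPM under ND and 256.4 and 351.3 TPM under HFD. Its HFD samples were 1.37-fold apart and its log2 fold change was 2.31 (SE 0.18, limma adjusted p = 0.00926). The exons of Mmp19 overlap those of Tmem198b on the opposite strand. Tmem198b had 9.9 and 9.8 TPM under ND and 29.1 and 38.6 TPM under HFD. The libraries were made with a stranded kit, but whether the reads were counted by strand is not given in the sources used here.

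Mmp3, stromelysin 1 (chr9:7445822-7455975), which cuts many matrix proteins and can open the proenzymes of other MMPs, went from near background to a clear level. It had 0.2 and 0.4 TPM under ND, approximately 5.1 and 11.9 reads, and 15.9 and 59.1 TPM under HFD, approximately 463 and 1497 reads. The HFD samples were 3.72-fold apart, the widest gap of the 10 genes. The log2 fold change of 4.62 (SE 0.71, limma adjusted p = 0.0281) was 5.54 with HFD replicate 1 left out and 3.70 with HFD replicate 2 left out. It rests on low ND values, and with a pseudocount of 5 in place of 1 it was 2.79 with an adjusted p of 0.0557. Mmp14, the membrane-bound MT1-MMP that cuts fibrillar collagen at the cell surface and activates pro-MMP2 (chr14:54431598-54442456), had 36.3 and 35.5 TPM under ND and 139.6 and 303.4 TPM under HFD. Both HFD samples were above both ND samples, with a log2 fold change of 2.49 (SE 0.43, limma adjusted p = 0.0344).

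The collagenases Mmp8 and Mmp13, which cut native fibrillar collagen, gave no DEG. Mmp13, collagenase 3 (chr9:7272514-7283333), had 33.1 and 35.8 TPM under ND and 45.9 and 37.4 TPM under HFD, with a log2 fold change of 0.26 (SE 0.13, limma adjusted p = 0.227). The diets did not overlap, but the lower HFD sample was only just above the higher ND sample. Mmp8, the collagenase stored in neutrophil granules (chr9:7558429-7568486), was near the lower limit of the data with 1.1 and 1.2 TPM under ND and 1.0 and 2.0 TPM under HFD, approximately 38.0 to 68.2 reads per sample. Its log2 fold change was 0.19 (SE 0.25, limma adjusted p = 0.618), and the diets overlapped, with the HFD samples at both ends of the range.

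Of the inhibitors, Timp1 (chrX:20870166-20874737), which is secreted and inducible in many cell types, rose, and the far more abundant Timp2 did not pass the test. Timp1 had 10.2 and 8.6 TPM under ND and 39.3 and 93.7 TPM under HFD. The HFD samples were 2.38-fold apart, and the log2 fold change was 2.57 (SE 0.48, limma adjusted p = 0.0401), which was 3.19 with HFD replicate 1 left out and 1.96 with HFD replicate 2 left out. After median-ratio scaling of the samples the adjusted p of Timp1 was 0.0509. Timp2 (chr11:118301061-118355411), which also takes part in the activation of pro-MMP2 by Mmp14, had 867.3 and 870.3 TPM under ND and 919.0 and 986.7 TPM under HFD. It was the highest of the 10 genes in every sample, and its log2 fold change was 0.13 (SE 0.05, limma adjusted p = 0.144).

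The calls differ in how firm they are. When genes were not filtered on low values, 29097 genes were tested, Mmp9, Mmp12 and Mmp19 stayed DEGs, and the adjusted p was 0.0590 for Mmp2, 0.0631 for Mmp3, 0.0756 for Mmp14 and 0.0871 for Timp1. With ND replicate 1 or ND replicate 2 left out, the spread came from the HFD samples alone and limma called 0 of the 10 genes and 0 of 16849 genes, with 3862 and 4024 genes at an unadjusted p under 0.05. The log2 fold changes of the 7 DEGs moved by at most 0.12 in these 2 fits.

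**Figure D2:**
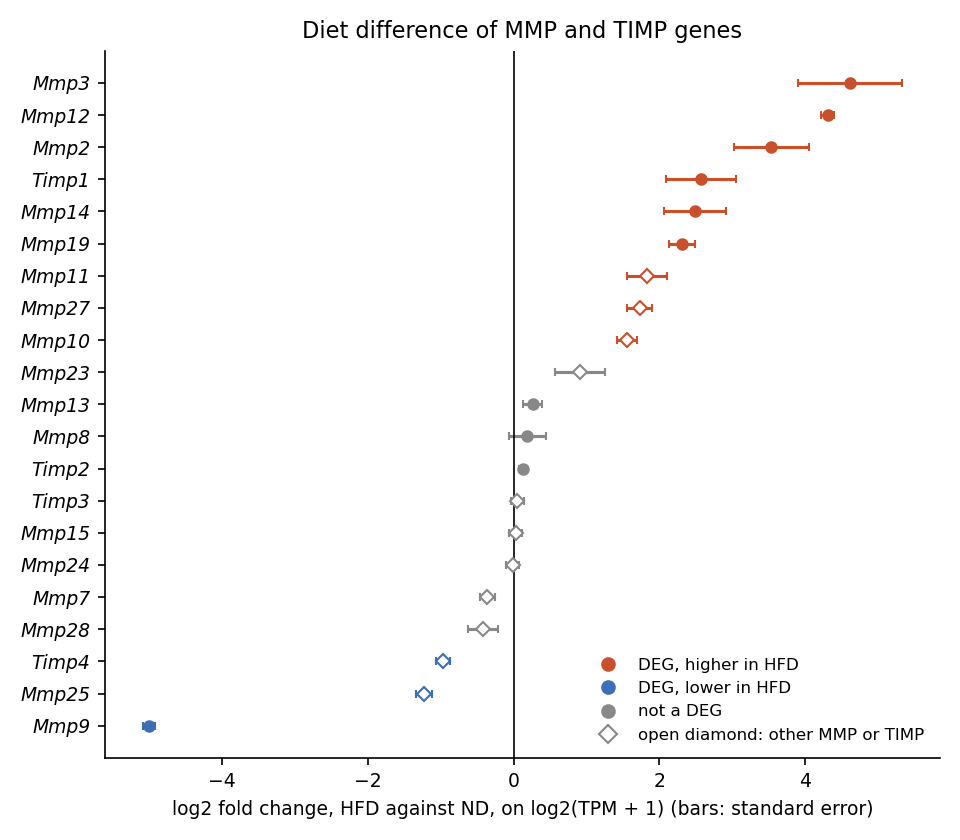
Log2 fold change of HFD against ND on the log2(TPM + 1) scale, with standard errors, for the 10 genes (filled circles) and the 11 other MMP and TIMP genes that passed the filter (open diamonds); red marks DEGs higher in HFD, blue DEGs lower in HFD and grey the rest. The values run from -5.01 for Mmp9 to 4.62 for Mmp3, and the error bars of Mmp2, Mmp3, Mmp14 and Timp1 are wider than those of Mmp12, Mmp19 and Mmp9.

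Since TPM are per length, the transcripts of different genes can be summed within a sample. Together the 8 MMPs had 352.2 and 357.6 TPM under ND and 987.4 and 1455 TPM under HFD. The pool was larger in both HFD samples, and its makeup differed. Mmp9 made up 54.3% and 53.3% of the pool in ND, followed by Mmp19 with 16.8% in both samples. In HFD, Mmp9 fell to 0.537% and 0.316% of the pool, and Mmp12 was first with 45.4% and 34.6%. Mmp19 was second in HFD with 26.0% and 24.1%, followed by Mmp14 with 14.1% and 20.9%. The share of Mmp2 was 2.53% and 2.80% in ND and 7.65% and 13.3% in HFD. The summed TPM of Timp1 and Timp2 was 877.5 and 878.9 in ND and 958.3 and 1080 in HFD. The sum of Timp1 and Timp2 was therefore 2.49 and 2.46 times that of the 8 MMPs in ND, and 0.971 and 0.743 times in HFD. Timp3, with 119.4 and 127.7 TPM under ND and 120.5 and 136.4 TPM under HFD, is not in these sums. Timp4 and the other MMPs are not in them either, so the ratios hold for these members only and not for the whole families. Of the TIMPs, Timp1 had 1.18% and 0.988% of the level of Timp2 in ND and 4.28% and 9.50% in HFD. In each HFD sample the order of levels began with Timp2, Mmp12, Mmp19, Mmp14 and Mmp2, and in each ND sample with Timp2, Mmp9 and Mmp19. The levels of Mmp13 and Mmp14 in ND did not differ beyond the spread between samples, nor did those of Timp1 and Mmp2, and in HFD the ranges of Mmp19 and Mmp14, and of Mmp14 and Mmp2, overlapped between the samples. These sums are descriptions without a test.

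**Figure D3:**
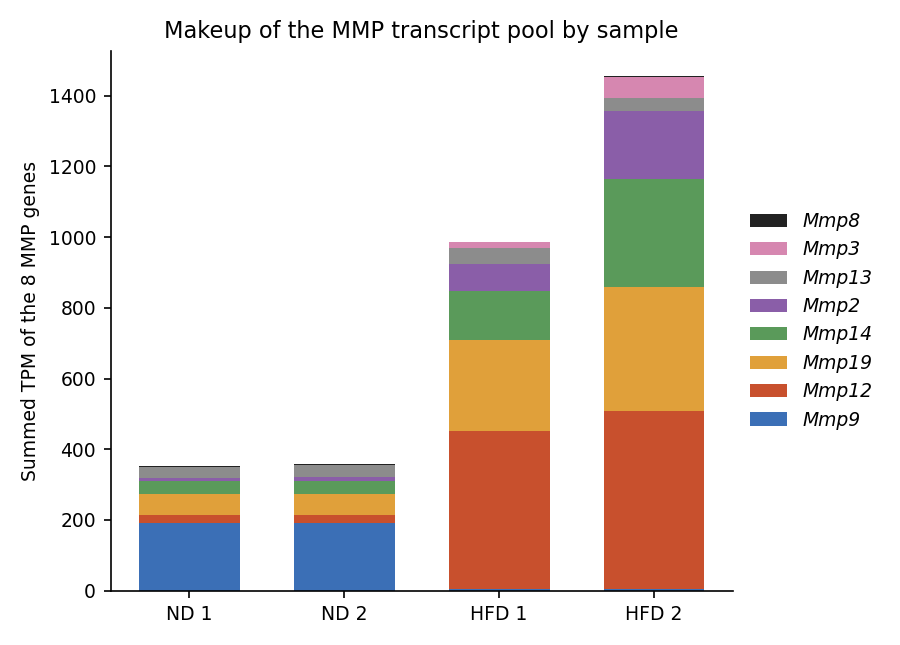
Summed TPM of the 8 MMP genes in each of the 4 samples, stacked by gene. The 2 ND bars reach 352.2 and 357.6 TPM and are mostly Mmp9, while the HFD bars reach 987.4 and 1455 TPM and are led by Mmp12.

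The HFD samples differed from each other in the fibroblast genes, so each member was set beside Col1a1, the gene of the main chain of type I collagen and a defining gene of fibroblasts. Col1a1 stood at 51.8 and 49.3 TPM under ND and at 476.0 and 1028.1 TPM in HFD replicates 1 and 2. On the log2(TPM + 1) scale its HFD replicate ratio, replicate 2 over replicate 1, was 1.11, and 0.706% of all genes tested had a ratio as high or higher. Mmp14 had a ratio of 1.11, Timp1 of 1.23 and Mmp2 of 1.34. These 3 genes lay within 0.5 of Col1a1, as did 3.14% of all genes tested. Mmp3 was higher still, at 1.83. Just outside the window on the lower side were Mmp8 at 0.58, which rests on few reads, and Mmp19 at 0.45. Mmp12 had a ratio of 0.17, Timp2 of 0.10, Mmp9 of -0.17 and Mmp13 of -0.29. With Col3a1 or Dcn in place of Col1a1, Mmp8 and Mmp19 also came within the window, which then held 5 of the 10 genes and 4.93% or 5.53% of all genes tested. Between the ND samples, the same ratio of replicate 2 to replicate 1 lay between -0.22 and 0.22 for all 10 genes. The ratios compare 2 libraries of 1 diet and have no error.

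**Figure D4:**
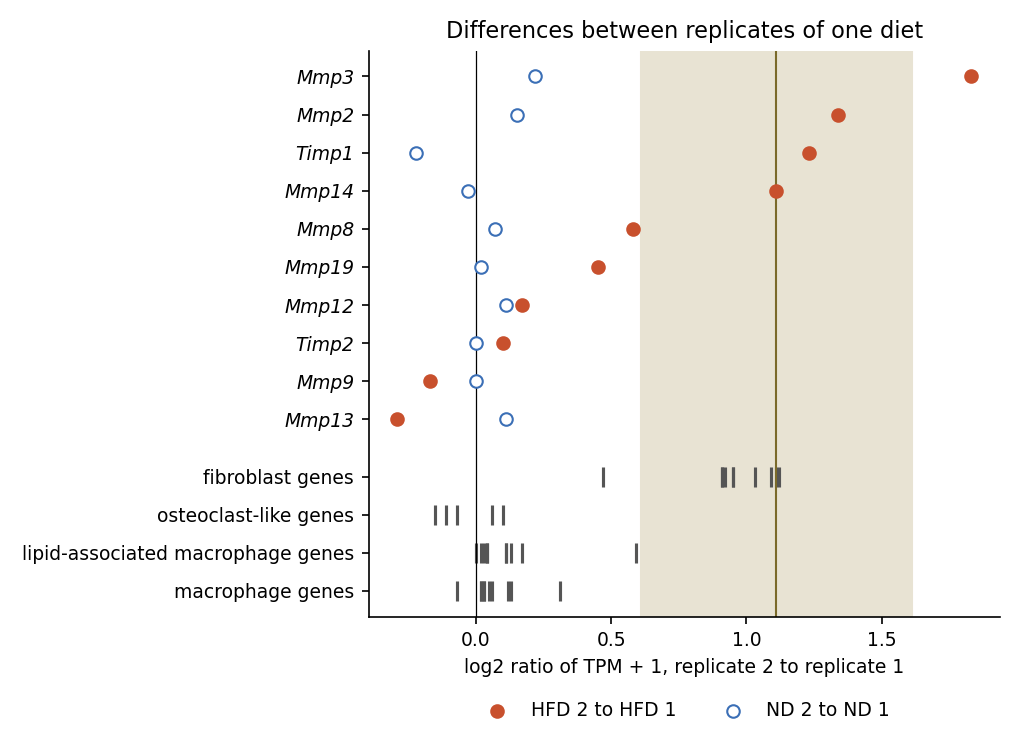
Log2 ratio of TPM + 1 between replicate 2 and replicate 1 of HFD (red) and of ND (open blue) for the 10 genes, with ticks below for the HFD ratios of single marker genes; the line marks Col1a1 and the band the window of 0.5 around it. Mmp14, Timp1 and Mmp2 lie in the band with most fibroblast genes, Mmp3 lies beyond it at 1.83, and Mmp12, Timp2, Mmp9 and Mmp13 lie between -0.29 and 0.17, where the median of all genes tested is -0.07.

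The marker lists gave the reference for these ratios. For the counts of DEGs in them, 8.08% of all genes tested were DEGs higher in HFD and 10.3% were DEGs lower. The 10 fibroblast genes had a median HFD replicate ratio of 0.95, from 0.47 for Pdgfrb to 1.12, a median log2 fold change between the diets of 2.74 and 8 DEGs, all higher in HFD. Their summed level was 631.9 and 677.2 TPM under ND and 3186 and 6360 TPM under HFD. The 10 macrophage genes had a median ratio of 0.04 and a median log2 fold change of -0.24, with 2 DEGs higher and 1 lower in HFD, and summed levels of 21180 and 20520 TPM under ND and 17500 and 18840 TPM under HFD. The 10 genes of lipid-associated macrophages, a macrophage state known from obese fat, were all DEGs and higher in HFD. Their median log2 fold change was 2.39, their median ratio 0.08 and their summed levels 1962 and 2019 TPM under ND and 11880 and 12480 TPM under HFD. Of 6 osteoclast-like genes, 5 were tested and 4 were higher in HFD, with a median ratio of -0.07 and summed levels of 41.9 and 46.5 TPM under ND and 861.0 and 855.6 TPM under HFD; Calcr was listed at 0. Ratios near 0 were not particular to macrophages, since the median was -0.07 over all genes tested, 0.01 over 5 endothelial genes and 0.10 over 6 neutrophil genes. Raised ratios were not particular to fibroblasts either. The median was 0.49 over 7 dendritic cell genes, from -0.16 for Cd209a to 1.09 for Ccr7. It was 0.48 over 5 mesothelial genes, from 0.36 for Msln to 0.94 for Wt1, and 0.38 over 5 mast cell genes. The lipid-associated macrophage genes reached 0.59, for Spp1. The ratios of Mmp2, Mmp3, Mmp14 and Timp1 were above the fibroblast median, Mmp8 at 0.58 and Mmp19 at 0.45 lay between the fibroblast and macrophage medians, and those of Mmp12, Timp2, Mmp9 and Mmp13 were nearer to the median of all genes than to the fibroblast median. Mmp9 and Mmp13 lay below the lowest of the 10 macrophage genes, at -0.07. The part of any cell type in the diet differences was not tested.

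Neutrophil and mast cell genes were also lower in HFD, as were some genes of the neutrophil granule and dendritic cell lists. Among all genes tested, 10.3% were DEGs lower in HFD. The 7 neutrophil genes summed to 76.0 and 98.9 TPM under ND and 29.6 and 32.2 TPM under HFD, and all 6 tested, among them Mmp25, were lower in HFD. Cxcr2, with 1.4 and 1.3 TPM under ND and 0.4 and 0.5 TPM under HFD, passed the filter only through the ND samples. Its place in this count is a description. Ly6g, a defining neutrophil gene, was at most 0.1 TPM in each sample. Of the 6 neutrophil granule genes, 2 were tested and 1, Lcn2, was lower in HFD, while Ltf had a log2 fold change of -0.08. The lower levels of the 5 mast cell genes, 1550 and 1566 TPM summed in ND and 376.3 and 479.4 TPM under HFD, were DEGs in all 5. The 7 dendritic cell genes summed to 514.8 and 536.4 TPM under ND and 174.7 and 218.9 TPM under HFD, mostly through Cd209a, and 2 were lower in HFD while 5 were not DEGs. The fall of Mmp9, with a log2 fold change of -5.01, was larger than that of any gene in these 4 lists, of which Cd209a had the largest at -2.61. The part of these cells in the fall of Mmp9 was not tested.

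Of the remaining cell types, none of the 5 endothelial genes was a DEG, 1 of 5 mesothelial genes was lower, 1 of 5 adipocyte genes was higher and 1 lower in HFD, and none of the 5 spermatid genes was a DEG. Ptprc, the gene of CD45, had 54.5 and 59.4 TPM under ND and 55.3 and 53.7 TPM under HFD. With HFD replicate 1 left out, the log2 fold changes of the 7 DEGs among the 10 MMP and TIMP genes ran from -5.10 to 5.54. They ran from -4.93 to 4.22 with HFD replicate 2 left out. In these fits the spread comes from the ND samples alone, so they give the size of the changes and cannot show whether the calls hold.

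By the distance of their centred log2(TPM + 1) values over the 4 samples, the 3 genes tested that were most like Mmp3 were Lum (0.94), Fbln7 (0.95) and Col1a1 (1.02), of which Lum and Col1a1 are in the fibroblast list. The 3 most like Mmp9 were Mir7094-2 (0.73), Pla2g2d (0.86) and Cfd (0.98). With 4 samples such a likeness says only that the levels moved by similar amounts.

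Of the 10 genes, 4 lie in a cluster of 10 MMP genes that spans 427.1 kb on chromosome 9 (chr9:7272514-7699585), in the order Mmp13, Mmp12, Mmp1b, Mmp3, Mmp1a, Mmp10, Mmp8, Mmp27, Mmp20 and Mmp7, with no other protein-coding gene in RefSeq between them. Neighbors in the cluster differed. Of the 7 cluster genes tested, 4 were higher in HFD, namely Mmp12, Mmp3, Mmp10 and Mmp27, and none was lower. Of all genes tested, 8.08% were DEGs higher in HFD and 10.3% were DEGs lower. Mmp3, Mmp10 and Mmp27 passed the filter only through the HFD samples, where they are high, and Mmp7 only through the ND samples, so their count is a description. Mmp10, stromelysin 2, was listed at 0 in both ND samples and had 1.7 and 2.2 TPM under HFD (limma adjusted p = 0.0113). Mmp27 had 0.1 and 0.2 TPM under ND and 3.3 and 2.4 TPM under HFD (limma adjusted p = 0.0130). With a pseudocount of 5 the log2 fold change of Mmp10 was 0.47, under the limit of 1.5-fold, and that of Mmp27 was 0.61. Mmp7, matrilysin, had 1.0 and 1.1 TPM under ND and 0.6 TPM in both samples under HFD, with a log2 fold change of -0.36 (limma adjusted p = 0.0905). The interstitial collagenase genes Mmp1a and Mmp1b, and Mmp20, the enamel protease, were at most 0.3 TPM in each sample and were not tested. In GENCODE vM21 the exons of Mmp12 overlap those of Mmp1b, which lies on the opposite strand, but Mmp1b was at most 0.3 TPM.

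**Figure D5:**
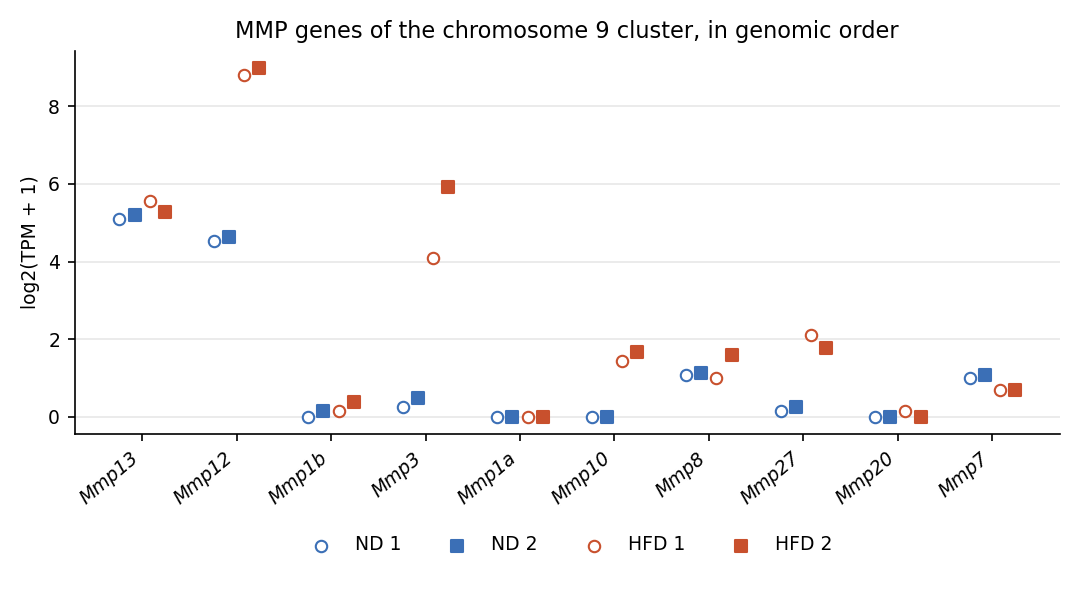
Log2(TPM + 1) of the 10 MMP genes of the chromosome 9 cluster, in genomic order, with 1 point per sample. Mmp12, Mmp3, Mmp10 and Mmp27 lie higher in both HFD samples, Mmp13 differs little, and Mmp1a, Mmp1b and Mmp20 lie near 0 in all 4 samples.

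Promoter windows from RefSeq (GRCm38.p6), 250 bases before to 50 after an annotated start, were held for 7 of the 10 genes, and not for Mmp2, Mmp9 and Mmp19. The search was for the AP-1 motif TGANTCA, which reads the same on both strands, and for TATAAA on either strand. Shown are 3 cluster members in which both occur, of which Mmp3 and Mmp12 rose with HFD and Mmp13 did not pass the test, and Mmp14, which rose and holds neither. The capitals mark the AP-1 and TATA letters. For Mmp12 the second of 2 annotated starts is shown; the window of the first holds neither motif.
Mmp3, plus strand, chr9:7445572-7445871: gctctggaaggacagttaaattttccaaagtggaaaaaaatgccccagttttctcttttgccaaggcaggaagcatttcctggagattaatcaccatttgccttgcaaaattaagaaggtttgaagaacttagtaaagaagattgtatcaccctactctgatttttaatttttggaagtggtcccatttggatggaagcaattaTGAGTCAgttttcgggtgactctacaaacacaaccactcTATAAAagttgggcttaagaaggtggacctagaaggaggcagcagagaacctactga
Mmp12, plus strand, chr9:7347124-7347423: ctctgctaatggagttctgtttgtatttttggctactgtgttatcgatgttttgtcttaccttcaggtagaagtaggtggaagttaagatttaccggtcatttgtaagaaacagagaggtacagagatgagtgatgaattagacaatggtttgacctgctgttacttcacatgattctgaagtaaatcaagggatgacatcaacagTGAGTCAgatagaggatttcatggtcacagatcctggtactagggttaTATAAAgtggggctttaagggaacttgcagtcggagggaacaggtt
Mmp13, plus strand, chr9:7272264-7272563: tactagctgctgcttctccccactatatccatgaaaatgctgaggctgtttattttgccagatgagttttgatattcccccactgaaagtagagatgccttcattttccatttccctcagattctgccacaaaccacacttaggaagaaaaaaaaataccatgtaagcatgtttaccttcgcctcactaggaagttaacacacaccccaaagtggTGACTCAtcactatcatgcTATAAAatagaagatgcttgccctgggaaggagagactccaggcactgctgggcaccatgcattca
Mmp14, plus strand, chr14:54431348-54431647: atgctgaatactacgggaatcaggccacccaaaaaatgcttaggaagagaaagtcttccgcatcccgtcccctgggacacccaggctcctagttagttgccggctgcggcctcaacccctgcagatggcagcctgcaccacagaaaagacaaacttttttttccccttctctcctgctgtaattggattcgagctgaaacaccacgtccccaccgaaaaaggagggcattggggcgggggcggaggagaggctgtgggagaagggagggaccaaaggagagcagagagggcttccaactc

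The AP-1 letters were TGAGTCA in Mmp3 and Mmp12, beginning 46 and 44 bases before the annotated start, and TGACTCA in Mmp13, beginning 35 bases before it. TATAAA began 7 bases before the start in Mmp3, 16 bases before it in Mmp13 and at base 5 counted from the start in Mmp12. All these distances rest on the annotated starts. Of the 7 genes with a window, 3 held the AP-1 motif, and of the 15 other MMP and TIMP genes with a window, 5 did, namely Mmp1a, Mmp1b, Mmp7, Mmp10 and Mmp20. Among all 27025 genes with such windows, 8.97% held the motif in at least 1 window. TATAAA was found in 4 of the 7 (Mmp3, Mmp8, Mmp12 and Mmp13) and in 15.7% of all genes, and both motifs in 1 window in 1.84% of all genes. The PEA3 letters AGGAAG, on either strand, were in 6 of the 7 and in 38.4% of all genes, and the NF-kB motif was in none of the 7 and in 1.89% of all genes. All 8 MMP genes found with the AP-1 motif lie in the chromosome 9 cluster. Mmp2, Mmp9, Mmp16, Mmp17 and Mmp19, which lie outside it, had no window and could not be searched. Of the 8, Mmp3, Mmp10 and Mmp12 were higher in HFD, Mmp3 and Mmp10 being tested only through their HFD samples. Mmp7 and Mmp13 were not DEGs, and Mmp1a, Mmp1b and Mmp20 were not tested. A match is a description of the letters only.

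Of 17 further MMP and TIMP genes, those of the cluster included, 11 were tested, 3 were higher and 2 were lower in HFD, and the median log2 fold change was 0.03. The shares over all genes tested were 8.08% higher and 10.3% lower. Mmp11, stromelysin 3, had 2.7 and 2.4 TPM under ND and 9.0 and 14.8 TPM under HFD (change of 1.83 on the log2 scale, limma adjusted p = 0.0261). Mmp25, the membrane-bound leukolysin of neutrophils, had 4.6 and 4.2 TPM under ND and 1.2 and 1.4 TPM under HFD (change of -1.23 on the log2 scale, limma adjusted p = 0.0115). With a pseudocount of 5 its log2 fold change was -0.58, just short of 1.5-fold. Timp4 had 11.4 and 12.6 TPM under ND and 5.8 and 5.5 TPM under HFD (change of -0.97 on the log2 scale, limma adjusted p = 0.0124). Timp3, the TIMP that binds to the matrix, was second to Timp2 among the TIMPs with 119.4 and 127.7 TPM under ND and 120.5 and 136.4 TPM under HFD. Its log2 fold change was 0.054 with an adjusted p of 0.681 in limma. The membrane-type genes Mmp15 and Mmp24 lay between 10.8 and 13.5 TPM in all samples and were not DEGs, and Mmp24 shares exon bases with BC029722 on the opposite strand, which had 70.3 to 78.0 TPM. Mmp23 had 1.3 TPM in both ND samples and 2.2 and 4.8 TPM under HFD (limma adjusted p = 0.148), and Mmp28 had 3.5 and 3.9 TPM under ND and 3.1 and 2.0 TPM under HFD (limma adjusted p = 0.217), with exons overlapping 1700020L24Rik on the opposite strand.

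Genes that open, block or clear MMPs changed on both sides. Of 18 such genes, 15 were tested, 5 were higher and 2 lower in HFD, against 8.08% and 10.3% of all genes tested, and the median log2 fold change was 1.02. Plau, the urokinase that makes plasmin, had 99.6 and 105.4 TPM under ND and 311.3 and 279.2 TPM under HFD, a log2 fold change of 1.52 (limma adjusted p = 0.00567). Serpinb2, an inhibitor of urokinase, fell from 17.7 and 19.4 TPM under ND to 5.6 and 4.7 TPM under HFD (change of -1.67 on the log2 scale, limma adjusted p = 0.00823). Thbs2, a secreted protein that binds MMP2 for uptake by cells, had 3.1 and 3.8 TPM under ND and 24.6 and 55.9 TPM under HFD (change of 3.10 on the log2 scale, limma adjusted p = 0.0258). Plat, the tissue plasminogen activator, had a log2 fold change of 1.76 and Serpine2 one of 1.38, with adjusted p-values of 0.0551 and 0.078 in limma. Plg, the gene of plasminogen, was listed at 0 in all 4 samples.

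The related ADAM and ADAMTS proteases had 7 DEGs higher and 3 lower in HFD among 16 tested of 17, against 8.08% and 10.3% of all genes tested. Their median log2 fold change was 0.70. Of the 3, Adam28 (1.0 and 1.1 TPM under ND, 0.1 and 0.2 TPM under HFD) passed the filter only through the ND samples. Adam8, a protease of myeloid cells, had 43.2 and 42.4 TPM under ND and 154.6 and 173.4 TPM under HFD (change of 1.91 on the log2 scale, limma adjusted p = 0.00477). Adamts2, which trims procollagen, had 4.5 and 4.8 TPM under ND and 25.3 and 57.7 TPM under HFD (change of 2.80 on the log2 scale, limma adjusted p = 0.0303). Adam12 had a log2 fold change of 2.71 and Adamts4, an aggrecanase, one of 2.22, both DEGs. Without the filter on low values the adjusted p was 0.0701 for Adam12, 0.0685 for Adamts4, 0.0670 for Adamts2 and 0.0590 for each of Thbs2, Mmp11 and Col5a1. The HFD replicate ratio of Adam8 was 0.94 below that of Col1a1 on the log2 scale, while those of Adamts2 and Adam12 were within 0.05 of it. Among 13 matrix substrates of these enzymes, 3 of them also in the fibroblast list, 10 were higher and 1 was lower in HFD, the median log2 fold change being 2.12. The largest rises were in the collagen genes Col1a1 (3.77), Col3a1 (3.36), Col1a2 (3.20) and Col5a1 (2.82).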

How the data were processed

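RNA-seq values of CD45+ cells from the eWAT of 2 ND and 2 HFD samples were used. As the methods and the submitters' processing notes state, the authors trimmed the reads with Trim Galore 0.4.2 and cutadapt 1.9.1, aligned them to mm10 with STAR 2.6.1e, removed duplicates with Sambamba, counted them per gene with featureCounts 1.6.2 and deposited TPM to 1 decimal. The libraries were made with a stranded mRNA kit from Illumina, but the annotation and the use of strand in counting are not given in the sources used here.

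Genes reaching 1 TPM in 2 or more samples were compared as log2(TPM + 1) in limma 3.58.1 under R 4.3.3 (moderated statistics with an intensity trend, two-sided, diet as the only term), with Benjamini-Hochberg adjustment over all genes tested. No count model was used, since TPM are not counts. The added 1 makes the fold changes of low genes smaller than their ratios. The steps were tested on simulated data. The methods name one-way ANOVA or Student's test for the study in general and no tool for the DEGs. The depth came from the smallest step of microRNA gene values (198 to 242 genes per sample), and read numbers from exon lengths in GENCODE vM21, so both are approximate.

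The genes named were the 10 members, Col1a1, Ptprc, the tested MMPs and TIMPs, up to 4 DEGs and 2 other genes of each of 4 lists of related genes by size of change, defining genes of 12 marker lists, and the nearest genes of the largest rise and fall. Plg, Ly6g, Tmem198b, the untested MMPs and the members of the marker lists named for their range were added after their values were seen. Cxcr2 and Adam28 were added in the same way. The members and lists were chosen with earlier results of these data known. The settings varied were the pseudocount (0.1 or 5), the filter (none, or a mean of 5 TPM or more), the trend (none), the scaling (median-ratio or quantile normalization), a block for the replicate number, a 2-fold limit, other reference genes, a window of 1 on the log2 scale (chosen after seeing the data) and each sample left out in turn. Protein sequences were not used here. The values of 1 gene of these lists are not reported here. Python 3.11.15 and matplotlib 3.10.9 served for the figures.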

Additional observations from a re-analysis of the deposited data

How the results depend on the processing

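The number of DEGs among the 10 genes was 7. It was 3 without a filter and 3 with a replicate block, in both cases Mmp9, Mmp12 and Mmp19. It was 6 after median-ratio scaling and 6 with a pseudocount of 5, and 7 under the other alternatives that kept all samples. The number of DEGs among all genes was 3097. It was 2015 with a pseudocount of 5, 1604 with a limit of 2-fold and 812 with the replicate block, and between 2250 and 3203 under the other alternatives with all samples. With 1 sample left out in turn, it ran from 0 to 4227 and the number among the 10 genes from 0 to 7, 0 whenever an ND sample was left out. In such a fit the lone sample of a diet is assumed to vary like the other diet. Without HFD replicate 2, 62.7% of the DEGs were higher in HFD, against 43.9% with all samples. Replicate numbers 1 and 2 occur in both diets, but the deviations of equally numbered samples from their diet means had a correlation of -0.015 across genes, and no pairing was assumed. The block leaves fewer degrees of freedom. Of the other DEGs named, Adam8, Plau and Col3a1 kept their calls with the block, while Mmp10, Mmp11, Mmp25, Mmp27, Timp4, Adam12, Adamts2, Adamts4, Thbs2, Serpinb2, Col1a1, Col1a2 and Col5a1 lost theirs, with adjusted p-values from 0.0521 (Col1a2) to 0.0746 (Mmp11). Without a filter, Mmp11, Adam12, Adamts2, Adamts4, Thbs2, Col1a2 and Col5a1 lost theirs, with values from 0.0505 (Col1a2) to 0.0701 (Adam12).

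The number of genes near Col1a1 in the HFD replicate ratio was 3. It was 4, with Mmp8 added, with a pseudocount of 0.1 and with quantile normalization, 5 with Col3a1, 5 with Dcn and 7 with a window of 1, which held 18.7% of all genes tested.

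None of the 7 DEGs changed direction under any alternative. In the fits without 1 of the samples, Mmp8 had log2 fold changes from -0.10 (without HFD replicate 2) to 0.48, Mmp15 from -0.049 (without HFD replicate 1) to 0.11, Timp3 from -0.035 (without HFD replicate 2) to 0.14 and Mmp24 from -0.080 to 0.060 (without ND replicate 2; 0.013 without HFD replicate 2). After quantile normalization Mmp15 was at -0.029 and Timp3 at -0.056. None of these 4 was a DEG. The causes were not tested. Few reads lie behind Mmp3 in ND, Mmp8 and the cluster genes under 1 TPM.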
